A study of Rattus norvegicus with 241 samples.

Results

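CD8 T cells of the whole rat mammary gland are described here in 9 single-cell RNA-seq libraries, each made from the unsorted mammary gland cells of 1 rat. The cells were chosen by their own transcripts: a cell was a CD8 T cell if 2 or more unique molecular identifiers (UMIs, each standing for 1 captured RNA molecule) came from the CD3 genes CD3E, CD3D and CD3G, 1 or more came from CD8A and CD8B, and 0 came from CD4, CD79B (a B cell gene) and C1QA (a macrophage gene). By this rule 4291 of 103524 cells were CD8 T cells, 4.14% of all cells, and they held 19209830 UMIs. The levels of these 8 genes follow from the choice and are given as a description only.

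CD8 T cells recognize peptides on MHC class I through a T cell receptor, whose signal is carried by the CD3 chains and the kinases LCK and ZAP70, with CD8A and CD8B as the co-receptor. Naive and central memory CD8 T cells carry CCR7, a chemokine receptor that guides them through lymphoid tissue. Effector cells hold granules of perforin and granzymes, and cells that stay in a tissue often carry the integrin ITGAE (CD103), which binds E-cadherin on epithelium and is known to be raised by TGF-beta, a cytokine that restrains cytotoxic genes of CD8 T cells.

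The rats were young virgin females of the SD strain, dosed by oral gavage from about 24 days of age with vehicle (3 rats, numbered 1, 2 and 4) or with TGFBRi at 75 mg/kg (6 rats, numbered 1, 2, 4, 6, 11 and 14). Doses were given 2 times a day for 10 days, and glands were taken on the day dosing ended (day 0). TGFBRi, named LY22157299 in the labels, is a small-molecule inhibitor of the TGF-beta type I receptor kinase given here to the whole animal. The cells were not sorted, and where in the gland a cell lay is not known.

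The whole-gland tables held 7900 to 16424 cells and 43110875 to 92699378 UMIs per rat. The number of CD8 T cells per rat was 190 to 605 after vehicle and 367 to 1014 after TGFBRi. CD8 T cells had a median of 2991 to 3318.5 UMIs after vehicle and 3586 to 4827 after TGFBRi, so that the groups did not overlap in depth, and B cells differed in the same way (2046 to 2264 against 2422.5 to 3549). The library of vehicle rat 4 stood apart from the others. Only 1.83% of its cells were B cells, against 12.1 to 19.8% in the other rats, and 75.8% of its CD8 T cells carried a UMI of another cell class, against 26.4 to 50% elsewhere. Any 2 libraries shared 88 to 284 cell barcodes, and 0 to 3 of these belonged to CD8 T cells in both. Doublets were not called, and results were instead recomputed without CD8 T cells that carried markers of another class (1686 cells) and without the 5% of cells with the most UMIs.

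The defining markers were present at the levels given next. CD3E ran from 475 to 665 UMIs per 1000000 UMIs of the population (UPM, the scale used for all levels below) in CD8 T cells of vehicle rats and from 685 to 813 after TGFBRi. CD8A ran from 601 to 797 and from 791 to 976, and CD8B from 166 to 257 and from 184 to 273. In B cells, defined by 2 or more CD79B UMIs and 0 CD3 UMIs, the medians were 1.28 for CD8A and 0.185 for CD8B, while CD3 genes are at 0 there by the definition. CD8B was often not read: 1878 cells (43.8%) qualified by CD8A alone, 2229 (51.9%) by both genes and 184 (4.29%) by CD8B alone. At the edge of the rule, 169 members (3.94%) had exactly 2 CD3 UMIs and 785 (18.3%) exactly 1 CD8 UMI. Just outside it lay 147 cells with 1 CD3 UMI and 145 with a UMI of CD79B or C1QA. NCR1, a receptor of natural killer cells, was read in at most 0.239% of CD8 T cells of any rat.

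CD8 T cells made up a larger share of the gland after TGFBRi, but the groups overlapped. They were 3.68% (exact 95% binomial interval 3.40 to 3.98), 1.62% (1.4 to 1.85) and 1.61% (1.39 to 1.86) of all cells in vehicle rats 1, 2 and 4, and 3.54% (3.21 to 3.89) at the lowest, 4.62% at the median and 8.83% (8.31 to 9.36) at the highest after TGFBRi. Vehicle rat 1 lay above TGFBRi rat 6, and the other TGFBRi rats lay above every vehicle rat. The group means were 2.30 ± 1.19% (SD, n = 3) and 5.25 ± 1.89% (SD, n = 6), a difference of 2.94 percentage points (standard error 1.03). A two-sided exact permutation test gave p = 0.0476, or 0.143 after Benjamini-Hochberg adjustment over the 6 shares computed, that of cells with a CD8B UMI among them, where 0.0238 is the smallest p that 3 rats against 6 allow. Without vehicle rat 4 the difference was 2.60 (exact p = 0.143). With 2 vehicle rats against 6 the smallest p possible is 0.0714, so that test could not pass 0.05. The intervals cover counting error only, and a share of cells cannot tell more CD8 T cells from fewer other cells.

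Other lymphocytes moved beside the CD8 T cells. CD4 T cells, defined in the same way with 1 or more CD4 UMIs and 0 of CD8A and CD8B, were 0.458 to 1.10% of all cells after vehicle and 2.22 to 3.75% after TGFBRi, without overlap. B cells were 1.83 to 13.1% and 12.6 to 19.8%. Among all 12926 T cells, 6174 showed a UMI of neither CD4 nor CD8, so each class holds only the T cells in which its co-receptor was read. These cells without a co-receptor UMI were 57 to 61.2% of T cells after vehicle and 40.1 to 50.9% after TGFBRi, without overlap. With every cell thinned to 1500 UMIs before the classes were assigned, and shallower cells left out, the share of CD8 T cells in all cells differed by 2.80 points (exact permutation p = 0.0238). Without the CD8 T cells that carried markers of another class, and without thinning, it differed by 1.92 points (exact permutation p = 0.0714), which did not pass the test.

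Within the T cells the share of CD8 T cells was 32.2%, 22.9% and 33.1% in vehicle rats 1, 2 and 4, and 25.5% at the lowest, 34.3% at the median and 41.1% at the highest after TGFBRi. The groups overlapped, and the difference of 4.69 percentage points (standard error 4.02) had an exact permutation p of 0.310 (adjusted p = 0.464 over the 6 shares). With thinned cells the difference was 2.89 (exact permutation p = 0.476). Counted against CD8 and CD4 T cells alone, CD8 T cells were 59.6 to 77.9% after vehicle and 52.9 to 71.6% after TGFBRi, a difference of −10.1 points (exact permutation p = 0.143). The direction thus turned with the denominator, and neither difference passed the test.

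**Figure D1:**
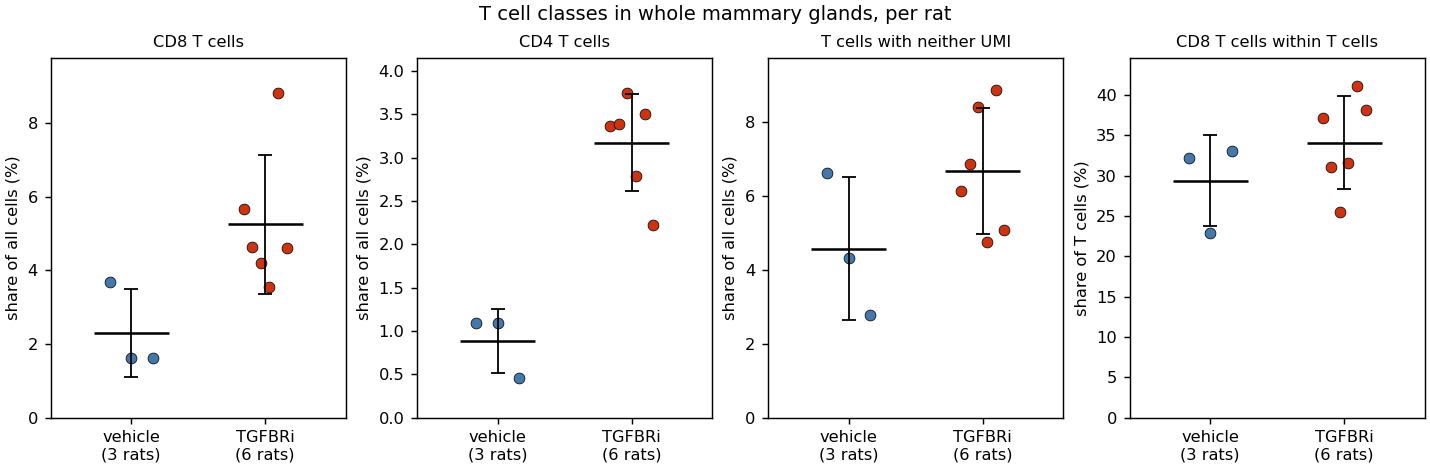
Shares of CD8 T cells, CD4 T cells and T cells without a co-receptor UMI in all cells, and of CD8 T cells in T cells, in percent. Each point is 1 rat (3 vehicle, 6 TGFBRi), the line is the group mean and the bar its SD. CD8 T cells range from 1.61 to 3.68% of cells after vehicle and from 3.54 to 8.83% after TGFBRi, while CD4 T cells do not overlap between groups.

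Most CD8 T cells of the gland carried RNA of the naive and central memory state. To compare rats of unequal depth, each cell was thinned to 1500 UMIs, which kept 3902 of the CD8 T cells and left out 389 shallower cells (18 to 80 per rat). At least 1 UMI of a small set of naive genes that includes CCR7 and LEF1 was read in 76.6%, 78.3% and 71.5% of CD8 T cells of vehicle rats 1, 2 and 4, and in 77.1% at the lowest, 82.1% at the median and 86.5% at the highest after TGFBRi. Vehicle rat 2 lay within the range of TGFBRi rats and the other vehicle rats below it. The means were 75.5 ± 3.54% (SD, n = 3) and 81.8 ± 3.59% (SD, n = 6), and the difference of 6.35 points (standard error 2.51) had an exact permutation p of 0.0476 (adjusted p = 0.143). It was 4.33 points without the cells carrying other-class markers (exact permutation p = 0.214), 4.51 without the cells of highest UMI number (exact permutation p = 0.167) and 3.12 under a stricter rule of 3 CD3 and 2 CD8 UMIs (exact permutation p = 0.405). Without thinning the share was 84.2 to 95.6% over the 9 rats.

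This share cannot be read as a share of naive T cells alone, since naive B cells also carry CCR7. The same UMIs were read in 58.4 to 73.8% of B cells of the 9 rats. LEF1, a transcription factor of naive T cells, set the classes apart: it was read in 25.6 to 49.9% of thinned CD8 T cells and in 1.28 to 3.26% of B cells. CCR7 was read in 52.4 to 66% of CD8 T cells and in 42.8 to 71.2% of B cells. The ranges of CCR7 overlapped, so CCR7 did not separate CD8 T cells from B cells.

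RNA of a small set of cytotoxic genes was read in a minority of CD8 T cells in every rat. The set leaves out the cytotoxic genes GZMM and CTSW, given below, so it is not the share of cells with any cytotoxic RNA. At least 1 UMI of GZMA, GZMB, GZMK, PRF1, NKG7 or CCL5 was read in 21.5%, 27.7% and 19.2% of thinned CD8 T cells of vehicle rats 1, 2 and 4, and in 19% at the lowest, 24.5% at the median and 27.8% at the highest after TGFBRi. The groups lay within almost the same range, with a difference of 0.902 points (standard error 2.89, exact permutation p = 0.786). In B cells the share was 0.994 to 2.65%, below that of CD8 T cells in every rat. Without thinning 35 to 47.6% of CD8 T cells carried such a UMI.

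PRF1, which codes for the pore-forming protein of cytotoxic granules, accounted for most of these cells, with UMIs in 12.2 to 22.3% of thinned CD8 T cells and 0.639 to 2.56% of B cells. GZMM, a granzyme outside that set, was read in 12 to 32.7% of CD8 T cells and in at most 0.465% of B cells. NKG7, a granule membrane protein, was read in 5.03 to 12.9% and the chemokine CCL5 in 1.20 to 5.41%. GZMK was read in 0 to 3.47%, GZMA in 0 to 0.865% and GZMB in 0 to 0.434% of CD8 T cells. GZMA and GZMB, the granzymes best known from effector killing, were thus at or near the limit of detection at this depth, while GZMM was not.

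RNA of tissue residency was rarer still. ITGAE, ITGA1 or CXCR6 was read in 3.75%, 3.61% and 6.40% of thinned CD8 T cells of vehicle rats 1, 2 and 4, and in 2.36% at the lowest, 3.40% at the median and 5.21% at the highest after TGFBRi. The groups overlapped, with a difference of −1.15 points (standard error 1.00, exact permutation p = 0.238). Without the cells carrying other-class markers the difference was −0.327 points (exact permutation p = 0.786). B cells carried UMIs of the residency genes in 0 to 1.78%. CXCR6, the receptor of a chemokine made in epithelium and other tissues, was read in 0.642 to 4.07% of CD8 T cells. ITGAE was read in 0 to 1.95% of CD8 T cells and 0 to 1.70% of B cells, so its UMIs in CD8 T cells could not be told from background.

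The share of CD8 T cells with a CD8B UMI, which the rule sets in part, was 30.5%, 35.5% and 23.8% in vehicle rats and 24.2% to 36.4% (median 33.6%) after TGFBRi at 1500 UMIs per cell. Since CD8B is a gene of the rule, these shares are a description and no test is given. A UMI of MKI67 or TOP2A, genes of dividing cells, was read in 0.602 to 5.15% of CD8 T cells and in 0.641 to 2.86% of B cells.

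The states were not spread evenly over the cells. Over the 9 rats 54.8 to 69.1% of thinned CD8 T cells carried naive UMIs only, 13.4 to 23.5% naive and cytotoxic UMIs, 3.09 to 7.73% cytotoxic UMIs only and 10.4 to 22.7% neither. Residency UMIs were read in 1.54 to 4.14% of the cells with naive UMIs and in 4.69 to 12.2% of those without, lower in 9 of 9 rats, with a mean difference of −5.41 ± 2.90 points (SD, n = 9, exact sign-flip p = 0.0039, adjusted p = 0.0156 over the 4 differences computed). Naive UMIs were read in 81.4 to 88.1% of cells with a CD8B UMI and in 66.4 to 86.1% of cells without, higher in 8 of 9 rats, which is a description since CD8B is a gene of the rule. Cytotoxic UMIs differed by −4.12 points between cells with and without naive UMIs (exact sign-flip p = 0.152, adjusted p = 0.199), which did not pass the test. All cells had the same number of UMIs here, so that UMIs of one kind leave slightly fewer for others, an effect that was not tested.

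**Figure D2:**
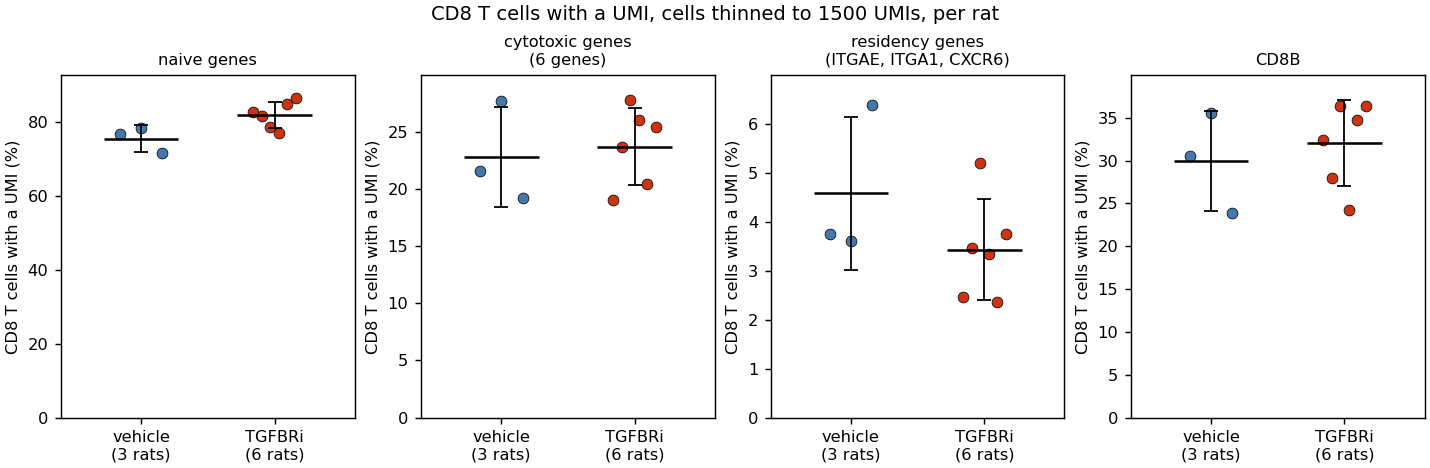
Share of CD8 T cells with at least 1 UMI of the naive genes (a set that includes CCR7 and LEF1), the cytotoxic genes (GZMA, GZMB, GZMK, PRF1, NKG7, CCL5), the residency genes (ITGAE, ITGA1, CXCR6) or CD8B, in percent of cells thinned to 1500 UMIs. Points are rats, lines are group means and bars are SD. Naive UMIs are read in 71.5 to 86.5% of cells, cytotoxic UMIs in 19 to 27.8% and residency UMIs in 2.36 to 6.40%.

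CD8 T cells were next compared with the CD4 T cells of the same rats. There were 2354 CD4 T cells, 54 to 180 per rat after vehicle and 243 to 450 after TGFBRi. Summed UMIs of the 2 classes were compared within rats by edgeR's quasi-likelihood test with the rat as a block, and the 8 rule genes were left out. Of 13316 genes tested, 4567 (34.3%) passed a Benjamini-Hochberg adjusted p of 0.1, with 2214 (16.6%) higher and 2353 (17.7%) lower in CD8 T cells. The direction was the same in every rat for 2363 genes (17.7%), of which 2030 were among the 4567. The classes were defined by CD8 and CD4 UMIs, so differences in genes known to follow these lineages are a description of the classes. Scaling by total UMIs alone moved the median of all genes from 0.04 to −0.13 on the log2 scale and the split to 1310 higher and 3745 lower, so changes are read against that shift.

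Granule and killer receptor genes led the list. GZMM ran from 135 to 476 UPM in CD8 T cells (median 239) and from 0 to 14.7 in CD4 T cells (median 1.46), a log2 difference of 5.61 (DESeq2 standard error, SE, 0.70, edgeR adjusted p = 1.4e-09). NKG7 ran from 66.5 to 199 UPM (median 99.6) and from 0 to 18.0 (median 1.26), a log2 difference of 5.05 (SE 0.76, adjusted p = 1.98e-08). Both were higher in CD8 T cells of 9 of 9 rats, with no overlap of the ranges. CTSW, a protease of cytotoxic lymphocytes, was the most abundant of these genes, with 552 to 737 UPM in CD8 T cells against 6.83 to 41 in CD4 T cells (log2 difference 5.25). PRF1 was higher by 1.80 on the log2 scale, at 79.8 to 149 UPM against 25.2 to 45.5. Of 17 cytotoxic genes tested, 8 were higher and 4 lower in CD8 T cells, where 16.6% of all genes were higher and 17.7% lower, with a median log2 difference of 0.72 against 0.04 over all genes.

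Lectin-like receptors of the natural killer gene complex were in part far higher in CD8 T cells. KLRB1C, which codes for an NKR-P1 receptor of killer cells, ran from 37.8 to 77.2 UPM (median 58) in CD8 T cells and from 0 to 1.5 (median 0.376) in CD4 T cells, a log2 difference of 6.51 (SE 0.51, adjusted p = 1.37e-12). KLRA22, a receptor of the Ly49 family, ran from 8.73 to 35.1 UPM in CD8 T cells and was read in 0 UMIs of CD4 T cells in every rat. With 371 UMIs in CD8 T cells and a floor of 3 UMIs over all CD4 T cells, KLRA22 was at least 89.5-fold higher. KLRE1, KLRD1 and KLRK1, of which KLRK1 is the activating receptor NKG2D, were higher by 4.54, 2.61 and 1.97 on the log2 scale. Of 18 NK receptor and adaptor genes tested, 8 were higher (16.6% of all genes) and 2 lower (17.7%), with a median log2 difference of 1.52. Of the KLR family, near-identical copies lie side by side in the rat genome, so reads may be split among them.

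Promoters of genes that lead this difference are shown from RefSeq on the GRCr8 assembly, from 250 bases before the gene start to 50 after, since the rn6 genome of the files was not at hand. Capitals mark the letters TGTGGT or their reverse complement ACCACA, the core bound by RUNX factors, which are known to act in CD8 T cells. Gzmm lies at chr7:10667207-10667506 on the minus strand, Nkg7 at chr1:102981247-102981546 on the plus strand and Klrb1c at chr4:164067999-164068298 on the plus strand.
Gzmm: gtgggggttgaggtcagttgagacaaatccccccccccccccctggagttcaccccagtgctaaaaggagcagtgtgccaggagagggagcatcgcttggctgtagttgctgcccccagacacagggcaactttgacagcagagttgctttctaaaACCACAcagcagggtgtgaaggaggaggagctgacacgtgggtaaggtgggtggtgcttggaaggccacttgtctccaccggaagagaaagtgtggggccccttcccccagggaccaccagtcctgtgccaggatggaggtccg
Nkg7: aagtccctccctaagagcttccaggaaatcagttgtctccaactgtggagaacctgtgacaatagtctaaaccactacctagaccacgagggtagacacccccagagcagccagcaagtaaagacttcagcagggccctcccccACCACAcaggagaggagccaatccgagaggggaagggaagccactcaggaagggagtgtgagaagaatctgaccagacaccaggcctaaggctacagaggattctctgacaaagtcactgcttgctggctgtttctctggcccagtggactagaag
Klrb1c: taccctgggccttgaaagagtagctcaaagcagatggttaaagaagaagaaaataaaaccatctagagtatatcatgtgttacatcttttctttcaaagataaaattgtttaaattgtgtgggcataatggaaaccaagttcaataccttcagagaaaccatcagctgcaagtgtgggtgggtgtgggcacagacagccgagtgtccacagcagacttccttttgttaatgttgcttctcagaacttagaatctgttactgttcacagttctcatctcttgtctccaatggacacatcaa
Of the 10 named genes higher in CD8 T cells 5 had a promoter in the table. The motif occurred 1 time each in the windows of Gzmm and Nkg7 and 0 times in those of Klrb1c, Klra22 and Klre1. It occurs in 5789 of 33469 promoters of this length (17.3%), and a match is a description of the letters only.

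Chemokines and homing receptors also differed. CCL5 ran from 32.1 to 774 UPM (median 225) in CD8 T cells and from 0 to 19.5 (median 0) in CD4 T cells, a log2 difference of 6.91 (SE 1.14, adjusted p = 4.02e-08). CCL4, a chemokine made by activated T cells, ran from 32.1 to 246 UPM against 0 to 23 (log2 difference 4.67). CCR9, a receptor for homing to the gut, ran from 36.8 to 81.5 UPM against 0 to 3.65 (log2 difference 4.82). CCR4, the receptor of a chemokine that draws helper and regulatory T cells, went the other way, at 0.447 to 14.0 against 38.7 to 96.2 UPM (log2 difference −3.94). All 4 differed in the same direction in 9 of 9 rats. IFNG and CRTAM, an adhesion receptor of cytotoxic T cells, were higher in CD8 T cells by 3.02 and 2.90 on the log2 scale, and the transcription factors EOMES and TBX21 by 2.33 and 1.26.

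Naive genes were higher in CD8 than in CD4 T cells. All 14 naive and central memory genes tested were higher in CD8 T cells, as were 16.6% of all genes, with a median log2 difference of 0.65, and 13 or 14 were called under every alternative. LEF1 ran from 164 to 436 UPM (median 373) in CD8 T cells and from 50.4 to 234 (median 152) in CD4 T cells, a log2 difference of 1.45 (SE 0.10, adjusted p = 2e-09). TCF7, a transcription factor of the same family as LEF1, was higher by 0.76 on the log2 scale. The chromatin organizer SATB1 was higher by 0.74, and each was higher in 9 of 9 rats. CCR7 differed least, by 0.21, and was higher in only 5 of 9 rats.

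Cell cycle genes were lower in CD8 T cells. All 22 S and G2/M phase genes tested were lower than in CD4 T cells, as were 17.7% of all genes, with a median log2 difference of −2.31. MKI67 ran from 2.59 to 63.2 UPM (median 12) in CD8 T cells and from 72.1 to 240 (median 202) in CD4 T cells, a log2 difference of −3.15 (SE 0.29, adjusted p = 2.11e-08). TOP2A, a topoisomerase of dividing cells, was lower by 3.12 on the log2 scale. Both were lower in 9 of 9 rats, and the ranges did not overlap.

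Costimulatory and regulatory genes of CD4 T cells were low in CD8 T cells. TNFRSF4 (OX40), a costimulatory receptor, ran from 1.31 to 64.5 UPM (median 12) against 382 to 756 (median 472), a log2 difference of −4.85 (SE 0.34, adjusted p = 1.2e-10). IZUMO1R, the folate receptor 4 of regulatory T cells, was lower by 5.50 on the log2 scale and ITGB8, an integrin that activates latent TGF-beta, by 4.11. ITGB8 ran from 0 to 3.39 UPM in CD8 T cells and from 19 to 50.5 in CD4 T cells. FOXP3, the transcription factor of regulatory T cells, ran from 3.93 to 29.9 UPM against 98 to 216 (log2 difference −3.30). Of 12 checkpoint receptor genes tested 8 were lower and 2 higher in CD8 T cells, where 17.7% of all genes were lower and 16.6% higher. CTLA4 was lower by 1.28 and TIGIT by 2.39 on the log2 scale, while LAG3 was higher by 1.13 and CD96 by 1.09. The other named genes lower in CD8 T cells were NEB, TOX2, JCHAIN, CD52, LOC24906 and CYB561A3, at log2 differences from −4.31 to −3.79. AABR07027872.1, a gene without a symbol of known function, was higher by 3.73.

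Of the TGF-beta pathway, TGFBR2, the receptor that binds the ligand, ran from 42.8 to 64.4 UPM (median 56.7) in CD8 T cells and from 21.6 to 52.5 (median 46.4) in CD4 T cells, a log2 difference of 0.51 (SE 0.11, adjusted p = 0.000141), higher in 9 of 9 rats. The inhibitory SMAD7 was higher by 0.89, while SMAD2, a transducer of the signal, was lower by 0.78 and LRRC32, which tethers latent TGF-beta to regulatory T cells, by 1.71. TGFBR1, the kinase that TGFBRi blocks, had a log2 difference of −0.01 (adjusted p = 0.982), at 6.54 to 19.1 UPM in CD8 and 7.20 to 24.7 in CD4 T cells. Of 25 pathway genes tested 6 were higher and 5 lower, where 16.6% and 17.7% of all genes were, with a median of 0.12 that turned to −0.05 with scaling by total UMIs.

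RNA of other cell types also differed between the classes, in both directions. Of 9 basal epithelial markers tested 6 were higher in CD8 than in CD4 T cells, as were 6 of 11 luminal and 5 of 9 fibroblast markers, against 16.6% of all genes. Immune markers went the other way: 4 of 9 B and plasma cell markers (median log2 difference −0.93), 5 of 10 macrophage and dendritic cell markers (median −1.01) and 5 of 6 MHC class II genes (median −1.75) were lower in CD8 T cells and 0 of each higher, against 17.7% of all genes lower. JCHAIN, the joining chain of antibodies, and CYB561A3, both named above as lower in CD8 T cells, had 22.5 to 390 and 157 to 405 UPM in B cells. KRT14, a basal keratin, had a log2 difference of 1.59. Without the cells of highest UMI number EPCAM, KRT8 and DCN turned to −0.30, −0.73 and −0.40 on the log2 scale. The part of RNA from other cells in this comparison was not tested.

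**Figure D3:**
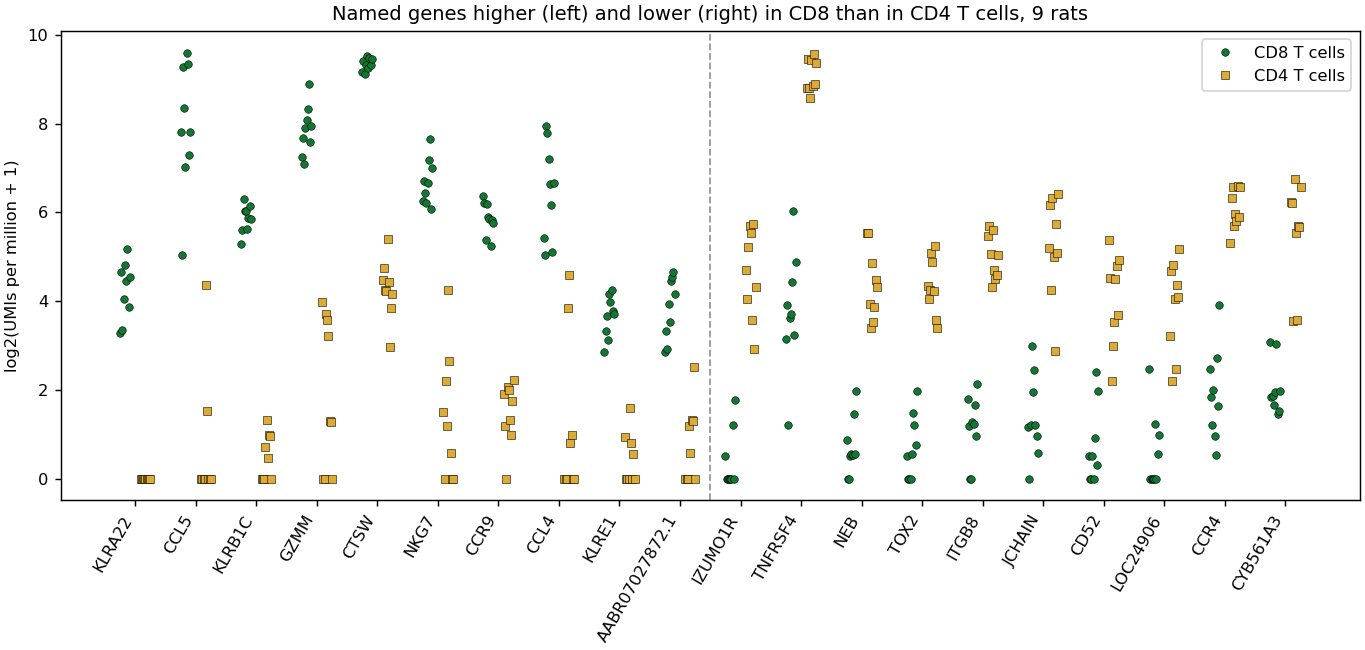
Levels of the 20 genes with the largest differences between CD8 and CD4 T cells by the naming rule, as log2 of UPM plus 1, with 1 point per rat and class (9 rats). The left panel holds genes higher in CD8 T cells and the right panel genes lower in them. Every gene differs in the same direction in 9 of 9 rats.

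In the summed UMIs of CD8 T cells, 783 genes passed the test of TGFBRi against vehicle. Summed UMIs per rat were compared by edgeR's quasi-likelihood test, again without the rule genes. Of 12438 genes tested, 783 (6.3%) passed an adjusted p of 0.1, with 390 (3.14%) higher and 393 (3.16%) lower after TGFBRi, and 2259 had an unadjusted p under 0.05. Vehicle and TGFBRi rats were fully apart for 1275 genes (10.3%), of which 594 were among the 783. DESeq2 called 734 genes (300 higher, 434 lower), of which 632 were also called by edgeR, and scaling by total UMIs alone called 714 (298 higher, 416 lower). Under the stricter rule for members 309 genes were called (176 higher, 133 lower), so the balance of rises and falls moved with the setting. The count rested on single libraries: 268 genes were called without vehicle rat 1, 487 without TGFBRi rat 1, 493 without TGFBRi rat 14 and 881 without vehicle rat 4. Of the 74 named or listed genes that passed, 42 did not pass without vehicle rat 1, among them BTLA, CCR8, GZMM, CRTAM, ITGB7, TGIF1, MYC, TXK and EPCAM. Without the CD8 T cells that carried markers of other classes 264 genes were called (149 higher, 115 lower), of which 188 were among the 783. Without the 5% of cells with most UMIs 292 were called (174 higher, 118 lower), of which 250 were among the 783.

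Genes of T cell receptor signaling were, of the 26 gene lists, the one with most calls. Of 20 genes of the receptor complex and its signaling tested, 13 rose, 0 fell and the others did not pass, where 3.14% of all genes rose and 3.16% fell. CD3E, CD3D and CD3G are not among the 20. The median log2 change of the list was 0.58 against 0.01 over all genes. Their summed level was 2776 to 4229 UPM after vehicle and 4604 to 5329 after TGFBRi, without overlap. CD5, a receptor that dampens T cell receptor signals, had 23.3, 24.4 and 27.5 UPM in vehicle rats 1, 2 and 4, and 52.3 at the lowest, 57.4 at the median and 69.6 at the highest after TGFBRi. The groups lay far apart, with a log2 change of 1.29 (DESeq2 SE 0.21, edgeR adjusted p = 0.00173). CD6, a related receptor, rose from 16.6, 27.0 and 27.5 UPM to 51.1 to 67 (median 58.4), a log2 change of 1.44 (SE 0.24, adjusted p = 0.00277). CD5 and CD6 passed the threshold under all 20 alternatives run.

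The kinases of the pathway rose by smaller steps. LCK had 282, 339 and 221 UPM in vehicle rats and 383 to 452 (median 440) after TGFBRi, a log2 change of 0.66 (SE 0.10, adjusted p = 0.00848). ZAP70 had 117, 127 and 91.6 UPM and then 155 to 186 (median 171), a log2 change of 0.64 (SE 0.12, adjusted p = 0.00848). In both the groups did not overlap, and vehicle rat 4 was lowest. FYN, a kinase of the same cascade, rose by 0.53, the adaptors SKAP1 and LAT by 0.57 and 0.80, the adhesion receptor CD2 by 0.70, the costimulatory receptor CD27 by 0.64 and the receptor chain CD247 by 0.58 on the log2 scale. PTPRC (CD45), the phosphatase of all leukocytes, and its partner PTPRCAP rose by 0.51 and 0.49. CD28, the main costimulatory receptor, had a log2 change of −0.09 (adjusted p = 0.850) and was not called. The count of 13 was 8 without vehicle rat 1, 8 without TGFBRi rat 14, 6 under a stricter rule for members (3 CD3 and 2 CD8 UMIs), 5 without the cells carrying other-class markers and 7 without the cells of highest UMI number, with 0 lower in each. In B cells the summed level of the same genes was 909 to 1317 UPM after vehicle and 1489 to 1707 after TGFBRi and in CD4 T cells 3859 to 4884 and 5165 to 5963, also without overlap.

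RUNX3, the transcription factor that silences CD4 and supports cytotoxic genes in CD8 T cells, had 27.0, 33.4 and 22.2 UPM in vehicle rats 1, 2 and 4, and 52.3 at the lowest, 55.5 at the median and 64.4 at the highest after TGFBRi. The groups did not overlap, with a log2 change of 1.09 (SE 0.19, adjusted p = 0.00173), and RUNX3 passed under all 20 alternatives. TOX, a transcription factor of chronically stimulated T cells, had 17.9, 14.1 and 9.16 UPM and then 35.9 to 51.9 (median 43.2), a log2 change of 1.58 (SE 0.26, adjusted p = 0.00173), also under all 20. BATF and IKZF2 (Helios) rose by 0.59 and 1.16 on the log2 scale. They were 2 of 11 effector transcription factors tested that rose, as 3.14% of all genes did, and 0 fell. TBX21 and EOMES did not pass the test, with log2 changes of 0.72 (adjusted p = 0.349) and −0.28 (adjusted p = 0.905).

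Checkpoint receptors rose in part. Of 12 tested, LAG3, CD96, BTLA and TOX, the last a transcription factor listed with them, rose and 0 fell, against 3.14% of all genes higher and 3.16% lower. LAG3, an inhibitory receptor for MHC class II, had 39.9, 64.2 and 45.8 UPM in vehicle rats and 77.8 to 115 (median 86.4) after TGFBRi, a log2 change of 0.96 (SE 0.19, adjusted p = 0.00872), and passed under all 20 alternatives. BTLA, an inhibitory receptor of the CD28 family, had 4.16, 1.28 and 2.62 UPM and then 6.74 to 19.9 (median 12.8), a log2 change of 1.98 (SE 0.57, adjusted p = 0.0327). Neither overlapped between groups. PDCD1 was near the limit of detection, at 0 to 3.85 UPM after vehicle and 0.432 to 1.92 after TGFBRi (log2 change −0.08, adjusted p = 0.991). CTLA4 had a log2 change of −0.17 (adjusted p = 0.707) and TIGIT of 0.46 (adjusted p = 0.683).

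Of the cytotoxic genes, GZMM was raised, while PRF1 was not called. GZMM had 152, 204 and 135 UPM in vehicle rats 1, 2 and 4, and 191 at the lowest, 257 at the median and 476 at the highest after TGFBRi, with vehicle rat 2 inside the range of treated rats. The log2 change was 0.86 (SE 0.24, adjusted p = 0.0672), and the call was lost in 8 of 20 alternatives. PRF1 had 92.7, 149 and 79.8 UPM and then 92.6 to 117 (median 105.1), a log2 change of 0.02 (SE 0.16, adjusted p = 0.978). UNC13D, which readies granules for release, rose by 0.65 and CTSC, the protease that activates granzymes, fell by 0.68 on the log2 scale. Of 16 cytotoxic genes tested, 2 rose and 1 fell, and of all genes 3.14% rose and 3.16% fell. NKG7, KLRD1 and CCL5 had log2 changes of 0.46 (adjusted p = 0.449), −0.08 (adjusted p = 0.924) and 0.32 (adjusted p = 0.887). IFNG had 0.416, 7.70 and 3.93 UPM and then 1.34 to 16.0 (log2 change 1.57, adjusted p = 0.369).

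HCST (DAP10), the adaptor through which KLRK1 signals, had 161, 182 and 164 UPM in vehicle rats and 238 to 321 (median 270) after TGFBRi. The groups did not overlap, with a log2 change of 0.74 (SE 0.12, adjusted p = 0.00436). KLRK1 itself had 49, 88.6 and 43.2 UPM and then 70.1 to 138 (log2 change 0.77, adjusted p = 0.129). CD160, a receptor of cytotoxic cells, was read in 0 UMIs of CD8 T cells of vehicle rats and in 1 to 8 UMIs per rat after TGFBRi (adjusted p = 0.0911), a call lost in 16 of 19 alternatives. Of 17 NK receptor and adaptor genes tested 2, HCST and CD160, were called higher and 0 lower, beside 3.14% and 3.16% of all genes. CD160 passed the filter of 10 UMIs through the TGFBRi rats alone, so HCST is the 1 rise that does not rest on that filter. The summed level of the list was 400 to 525 UPM after vehicle and 597 to 650 after TGFBRi, without overlap.

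Receptors of cytokines and adhesion molecules included some of the most stable changes. IL2RB, the signaling chain of the receptors for IL-2 and IL-15, had 91.4, 131 and 91.6 UPM in vehicle rats 1, 2 and 4, and 147 at the lowest, 206 at the median and 254 at the highest after TGFBRi. The groups did not overlap, with a log2 change of 0.96 (SE 0.18, adjusted p = 0.0105). IL21R had 217, 257 and 175 UPM and then 313 to 425 (median 366), a log2 change of 0.80 (SE 0.15, adjusted p = 0.0105). These were the 2 of 16 cytokine receptors that rose (3.14% of all genes did), 0 fell, and both passed under all 20 alternatives. IL7R, the receptor that keeps naive T cells alive, had a log2 change of −0.14 (adjusted p = 0.649).

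The integrin LFA-1 rose in both its chains. ITGAL had 32.8, 44.9 and 24.9 UPM in vehicle rats and 65.4 to 79 (median 74) after TGFBRi, a log2 change of 1.15 (SE 0.18, adjusted p = 0.00173). ITGB2 had 41.1, 39.8 and 45.8 UPM and then 72.2 to 104.6 (median 89.9), a log2 change of 1.11 (SE 0.19, adjusted p = 0.00277). Both were without overlap and passed under all 20 alternatives. ITGB7, a chain of gut-homing integrins and the partner of ITGAE, rose by 1.22 on the log2 scale, from 11.8 to 21.8 UPM after vehicle to 20.2 to 44.1 after TGFBRi, with an overlap of 1 rat on either side. ITGB1, a chain of matrix-binding integrins, fell by 0.54 on the log2 scale. CCR8, a chemokine receptor found on skin-homing and regulatory T cells, had 5.40, 1.28 and 0 UPM and then 6.58 to 37.2 (median 14.8), a log2 change of 2.56 (SE 0.71, adjusted p = 0.0769), a call lost in 9 of 20 alternatives. Of 19 chemokine receptors and homing integrins listed and tested, 3 rose and 1 fell, with 3.14% and 3.16% of all genes doing so.

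Of 14 genes of the naive state tested, SATB1, MYB and TXK rose, by 0.72, 0.59 and 0.72 on the log2 scale, and 0 fell, where 3.14% of all genes were called higher. The median log2 change of the list was 0.34, against 0.01 over all genes. TXK, a kinase of resting T cells, had 33.2, 33.4 and 34 UPM and then 45.1 to 65.7 (median 54.1), without overlap (adjusted p = 0.0366). CCR7 had 565, 680 and 692 UPM and then 725 to 914 (log2 change 0.35, adjusted p = 0.143), without overlap but not past the threshold. LEF1 and TCF7 had log2 changes of 0.43 and 0.55 (adjusted p = 0.309 and 0.152). Of 18 tissue residency genes, RUNX3 and CRTAM rose and ITGA1 and CDH1 fell, where 3.14% of all genes rose and 3.16% fell. CDH1 is the E-cadherin of epithelium and not a T cell gene, and its fall of 1.57 on the log2 scale stood beside falls of 5 of 11 luminal markers, whose part in it was not tested. Without the cells carrying other-class markers CDH1 was not called (adjusted p = 0.319). CRTAM had 9.56, 14.1 and 13.1 UPM and then 19.7 to 36.8 (median 28.6), a log2 change of 1.28 (SE 0.33, adjusted p = 0.0192). ITGA1 (CD49a), which binds collagen, had 5.40, 7.70 and 11.8 UPM and then 1.30 to 3.53 (median 2.63), a log2 change of −1.57 (adjusted p = 0.0740) that was lost in 12 of 20 alternatives. ITGA1 was highest in vehicle rat 4, where 75.8% of CD8 T cells carried a UMI of another cell class. The part of RNA from other cells in its fall was not tested. ITGAE had 2.49, 12.8 and 9.16 UPM and then 7.78 to 15.5 (median 11.2), with a log2 change of 0.77 (SE 0.48, adjusted p = 0.390).

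Of 25 genes of the TGF-beta pathway tested in CD8 T cells, 0 rose and 1 fell, a share near the 6.3% called over all genes, with a median log2 change of −0.06 that lay between −0.24 and 0.20 over the alternatives. TGIF1, a repressor of SMAD-driven transcription, had 102.7, 114 and 91.6 UPM and then 56.6 to 84 (median 66.9), a log2 change of −0.52 (SE 0.16, adjusted p = 0.0492), without overlap. TGFBR1 had 19.1, 15.4 and 6.54 UPM and then 10.7 to 16.0 (log2 change −0.08, adjusted p = 0.929). TGFBR2 had 42.8, 60.3 and 45.8 UPM and then 50.5 to 64.4 (log2 change 0.28, adjusted p = 0.354). SMAD7, an early target of the pathway, had 27.4, 21.8 and 34 UPM and then 32.4 to 47.2 (log2 change 0.53, adjusted p = 0.173). Of 20 genes known to respond to TGF-beta in T cells, IKZF2 rose and MYC fell, with 6.3% called over all genes. MYC had 164, 133 and 143 UPM and then 60.1 to 106.3 (median 100), a log2 change of −0.68 (SE 0.20, adjusted p = 0.0655), without overlap and lost in 7 of 20 alternatives. SKIL and PMEPA1, targets of SMADs in many cells, had log2 changes of 0.05 (adjusted p = 0.987) and 0.29 (adjusted p = 0.632).

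MX1, an antiviral interferon gene, had 17, 12.8 and 14.4 UPM in vehicle rats and 35.9 to 48.8 (median 40.3) after TGFBRi, a log2 change of 1.46 (SE 0.25, adjusted p = 0.00177), without overlap and under all 20 alternatives. MX1 and IFI27 were the 2 of 20 interferon-stimulated genes that rose, and 0 fell, against 3.14% of all genes higher and 3.16% lower. MCM3 and MCM6, parts of the helicase that opens DNA for replication, rose by 0.82 and 1.19 on the log2 scale, and TUBB5, a tubulin, by 0.65. They were the 3 of 22 S and G2/M phase genes that rose, and 0 fell, against the same shares of all genes. MKI67 had a log2 change of −0.10 (adjusted p = 0.986) and TOP2A of 0.12 (adjusted p = 0.976). Of 19 immediate early genes, FOSB and JUNB rose by 0.70 and 0.72, and IER3 and ATF3 fell by 1.49 and 0.99 on the log2 scale, with 6.3% of all genes called. Of 13 cytokines and chemokines tested, IL16 alone rose, by 0.63 on the log2 scale, a count near the 6.3% called over all genes.

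The largest falls by the naming rule described here were in genes not known as T cell genes, some of them epithelial. AKR1B8, an aldo-keto reductase, had 131, 80.9 and 26.2 UPM in CD8 T cells of vehicle rats 1, 2 and 4, and 1.30 at the lowest, 2.75 at the median and 6.92 at the highest after TGFBRi. The groups did not overlap, with a log2 change of −4.46 (SE 0.51, adjusted p = 0.00162). CXCL3, a chemokine for neutrophils, had 605, 1024 and 253 UPM and then 2.41 to 72.4 (median 29.4), a log2 change of −4.33 (SE 0.87, adjusted p = 0.00256). NQO1, a detoxifying enzyme, fell by 2.66, SLC7A11, the cystine transporter, by 2.58, and ADM, a vasodilator peptide, by 3.40 on the log2 scale. ALDH1A3, KRT23 and TRIM47 fell by 2.91, 2.76 and 2.48.

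CCL20, the chemokine for CCR6-bearing cells, had 2.08, 272 and 2.62 UPM in vehicle rats 1, 2 and 4 and was read in 1 UMI over all 6 TGFBRi rats. The vehicle values rest on 5, 212 and 2 UMIs, so the fall (adjusted p = 0.0113) had most of its size from vehicle rat 2. Without vehicle rat 2 CCL20 had too few UMIs to be tested.

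Group means of these genes were also lower after TGFBRi in B cells and CD4 T cells, where no test was run. The log2 ratio of group means of AKR1B8 was −5.11 in B cells and −3.49 in CD4 T cells, that of CXCL3 −4.17 and −2.85, and that of NQO1 −2.71 and −3.33. In CD4 T cells the groups did not overlap for CXCL3, NQO1 and ADM, but did for AKR1B8, SLC7A11, ALDH1A3, KRT23, TRIM47 and CCL20. AKR1B8 had 33.2, 225 and 14.4 UPM in CD4 T cells of vehicle rats 1, 2 and 4, and 1.26 to 19.04 after TGFBRi. Its ratio there thus had most of its size from vehicle rat 2. CCL20 was near the limit of detection in CD4 T cells, at 0 to 1.296 UPM after vehicle and 0 to 0.729 after TGFBRi. Epithelial marker RNA moved with the named falls in CD8 T cells. Of 11 luminal markers tested 5 fell and 0 rose (median log2 change −1.34), where 3.16% of all genes fell, and 1 of 9 basal markers fell, while 0 of 9 fibroblast and 0 of 8 endothelial markers were called. The median of the fibroblast markers was −1.46, and 0.68 without the cells carrying other-class markers. KRT8 had 592, 484 and 285 UPM and then 109 to 287 (log2 change −1.34, adjusted p = 0.0118), against a log2 ratio of −1.35 in B cells. EPCAM had 904, 349 and 208 UPM and then 133 to 229 (log2 change −1.41, adjusted p = 0.0305), against −1.82 in B cells.

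In CD8 T cells the summed level of the 12 luminal markers was 932 to 3693 UPM after vehicle and 674 to 1466 after TGFBRi, that of 9 basal markers 267 to 1102 and 116 to 469, and that of 9 fibroblast markers 1399 to 10147 and 464 to 4138. COL1A1, a fibroblast collagen, was highest in vehicle rat 4, at 5641 UPM. Markers of B cells summed to 11.8 to 16.6 and 14.5 to 25 UPM in CD8 T cells against 2142 to 3463 in B cells, and those of macrophages and dendritic cells to 16.7 to 90.3 and 25.2 to 55.8. No gene of these last lists was called. Levels are shares of all UMIs of the population, and the part of RNA from other cells was not tested, neither in the falls nor in the rises of T cell genes. Without the CD8 T cells carrying other-class markers AKR1B8, CXCL3, NQO1, SLC7A11 and EPCAM passed, while CCL20, KRT23 and KRT8 had no test there. Without the cells of highest UMI number AKR1B8, CXCL3 and NQO1 passed, KRT23, SLC7A11, EPCAM and KRT8 did not, and CCL20 had no test.

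The other genes with the largest rises were mostly at low levels. ST6GALNAC4, a sialyltransferase, had 2.08, 2.57 and 1.31 UPM in vehicle rats and 7.22 to 10.8 (median 10.1) after TGFBRi, a log2 change of 2.27 (SE 0.60, adjusted p = 0.0039), without overlap and under all 20 alternatives. BICDL1, an adaptor of transport along microtubules, had 2.91, 6.42 and 5.23 UPM and then 11.1 to 23.3 (median 21.7), a log2 change of 2.23 (SE 0.47, adjusted p = 0.00848). CAR12, a carbonic anhydrase, and TUBE1, a tubulin, rose by 2.23 and 1.79 on the log2 scale, and NSG2 and ACAT2L1 by 1.80 and 1.76. AABR07053650.1 and AABR07018078.1, genes without a symbol of known function, rose by 3.24 and 2.08. In vehicle rats 1, 2 and 4 the values of ST6GALNAC4 rest on 5, 2 and 1 UMIs. Those of CAR12 rest on 7, 1 and 0 UMIs and those of AABR07053650.1 on 2, 1 and 1. ST6GALNAC4, CAR12 and AABR07053650.1 passed the filter of 10 UMIs only through the TGFBRi rats, so their rises rest in part on that filter.

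**Figure D4:**
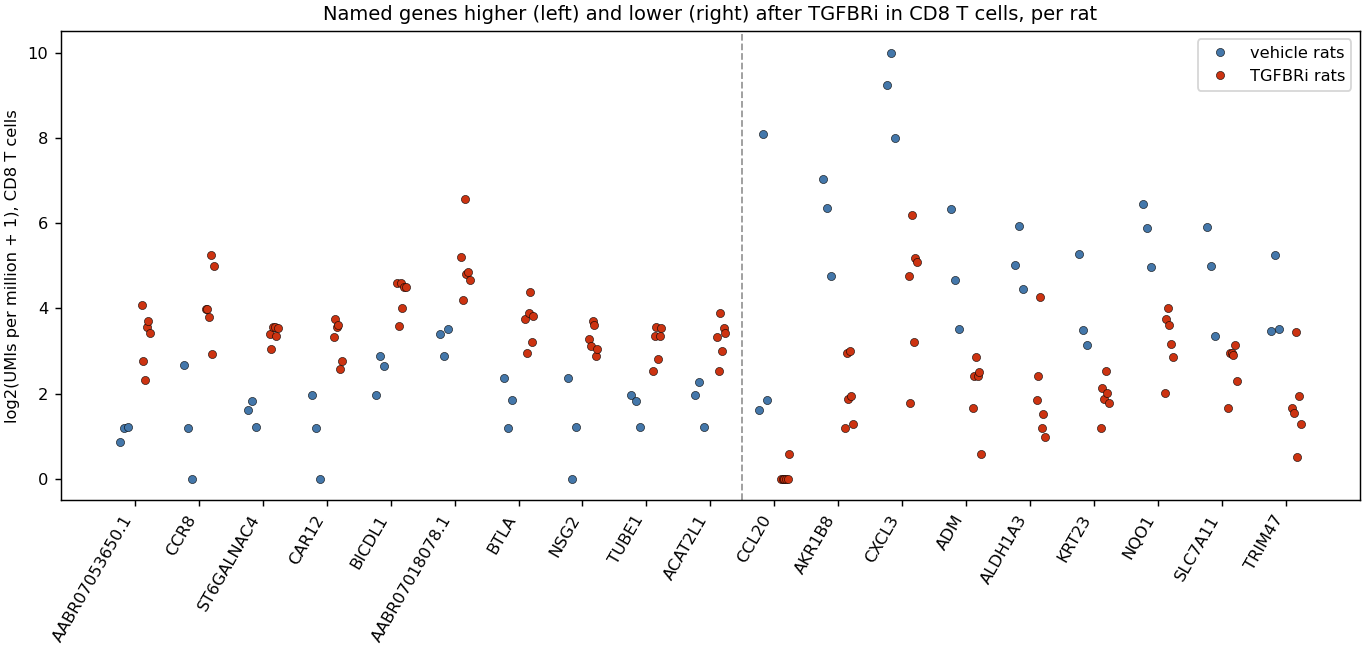
Levels of genes with the largest changes after TGFBRi in CD8 T cells by the naming rule, as log2 of UPM plus 1, with 1 point per rat (3 vehicle, 6 TGFBRi). The left panel holds genes higher and the right panel genes lower after TGFBRi. The groups do not overlap for any of them, and AKR1B8 lies at 26.2 to 131 UPM after vehicle and at 1.30 to 6.92 after TGFBRi.

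**Figure D5:**
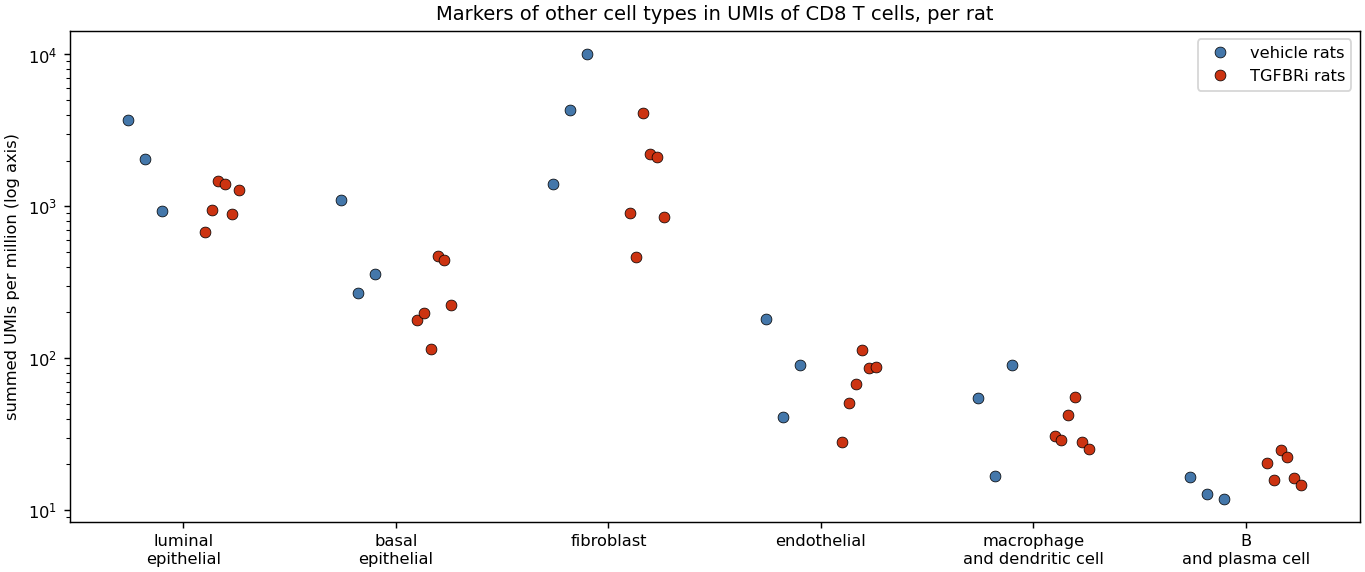
Summed UPM of markers of other cell types within CD8 T cells, on a log axis, with 1 point per rat (3 vehicle, 6 TGFBRi). Luminal markers range from 932 to 3693 after vehicle and from 674 to 1466 after TGFBRi, and fibroblast markers from 1399 to 10147 and from 464 to 4138, with an overlap of the groups in both.

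Whether the treatment effect differed between CD8 and CD4 T cells was tested as the interaction of class and treatment in 1 fit. Of 13316 genes tested, 25 (0.188%) passed an adjusted p of 0.1, with 15 more positive and 10 more negative in CD8 T cells, and 1022 had an unadjusted p under 0.05. In 725 genes (5.44%) the CD8 to CD4 ratios of vehicle and TGFBRi rats were fully apart, of which 23 were among the 25. IL2RB rose in CD8 T cells (above), while CD4 T cells had 256 to 330 UPM after vehicle and 185 to 305 after TGFBRi, a log2 difference of 1.10 between the effects (SE 0.17, adjusted p = 0.00765). CD5 had 89.99 to 133 and 102.95 to 128 UPM in CD4 T cells, a difference of 1.18 (SE 0.25, adjusted p = 0.0265). TOX had 36 to 167 and 103.3 to 146 UPM in CD4 T cells, a difference of 1.29 (SE 0.32, adjusted p = 0.0499).

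LCP1 (L-plastin), which bundles actin in leukocytes, had 101.8, 110 and 116 UPM in CD8 T cells of vehicle rats and 214 to 314 (median 256) after TGFBRi, and 289 to 446 and 396 to 436 in CD4 T cells. The difference between the effects was 1.02 (SE 0.17, adjusted p = 0.0140). MYO1G, a myosin of lymphocytes, LSP1, an actin-binding protein, and ITGB7 had differences of 1.14, 0.90 and 1.42. MCM6, the costimulatory receptor ICOS and the adaptor SH2D2A had differences of 1.26, 0.90 and 0.81. For ICOS the log2 ratio of group means was 0.40 in CD8 T cells, where the groups overlapped, and −0.50 in CD4 T cells. The difference for ICOS is thus not the size of a rise in CD8 T cells alone. S100A11 and ANXA5, calcium-binding proteins, went the other way, with differences of −1.07 (SE 0.18, adjusted p = 0.00948) and −1.01 (SE 0.22, adjusted p = 0.0265). S100A11 had 823, 616 and 429 UPM in CD8 T cells and then 147 to 265, and 415 to 439 and 248 to 356 in CD4 T cells. HTRA3, OLFML3, NBL1, FXYD1 and FCGRT, at differences from −4.60 to −1.56, were read at 4.99 to 81.1 UPM in CD8 T cells of vehicle rats. In CD4 T cells of vehicle rats all but FCGRT lay at 0 to 10.37 UPM. The log2 ratios of group means of these genes were −2.33 to −1.14 in CD8 and 0.36 to 1.68 in CD4 T cells. The differences thus join a fall in CD8 T cells with a rise in CD4 T cells, and are not sizes of the fall alone. In CD8 T cells HTRA3, OLFML3, NBL1 and FXYD1 were highest in vehicle rat 4, at 65.4, 51, 81.1 and 62.8 UPM. In that library 75.8% of CD8 T cells carried other-class UMIs and COL1A1 stood at 5641 UPM. In the interaction fit the 9 fibroblast markers had a median of −2.29, with 0 called, and their part in the result was not tested. None of these 17 genes passed under all 18 alternatives of this comparison, and 0 of them passed when 3 CD3 UMIs and 2 UMIs of the co-receptor were asked for, where 1 other gene was called. In B cells, where no test was run, the log2 ratios of group means of these 17 genes had the same sign as in CD8 T cells. They were smaller in B cells for MYO1G (0.13 against 1.26) and CD5 (0.36 against 1.20). They were near those of CD8 T cells for ITGB7 (1.34 against 1.10), S100A11 (−1.28 against −1.54), ANXA5 (−1.24 against −1.33) and FCGRT (−1.03 against −1.14). These last changes were not particular to CD8 T cells.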

How the data were processed

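Unsorted mammary gland cells of 3 vehicle and 6 TGFBRi rats were sequenced by the authors as 10x Chromium 5′ libraries without intronic reads, and the deposited tables hold raw counts (UMIs) per gene and cell. The submitters' processing notes name Cell Ranger 7.0.0, Seurat 4.1.1 and rn6. The tables held 18237 genes, and no cell had fewer than 101 genes.

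UMIs of CD8 T cells, CD4 T cells and B cells were summed per rat and given as UMIs per 1000000 UMIs (UPM). Sums with 10 or more UMIs over all samples were tested with edgeR 4.0.16 (TMM, quasi-likelihood, Benjamini-Hochberg adjusted p of 0.1) in R 4.3.3. The study generally used 0.1 for gene lists from tests over single cells, and 0.05 for its bulk RNA-seq. Standard errors came from DESeq2 1.42.0. Shares of cells were compared by exact permutation in Python 3.11.15 with scipy 1.17.1. Scripts were tested on simulated data.

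The members, the 26 gene lists (338 of 360 genes found) and the tests were chosen with earlier results of these data known. Named genes were the 10 per direction with the largest log2 fold change among those past the threshold, with a mean of 20 or more UMIs per rat in the higher group and no overlap between groups (or the same direction in every rat), and the list genes that passed. Other list genes are given as values, and some genes that the rule or a list holds are not reported here. Each library came from 1 rat, and p-values measure the spread between rats.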

Additional observations from a re-analysis of the deposited data

Results flagged for a closer look

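In groups of 6 rats, 46 sets of values were examined for 1 sample far from the rest, and chance marks about 1 in 20 such sets. In CD8 T cells of TGFBRi rats, rat 4 stood far above the others for AABR07018078.1 (93.4 UPM), ALDH1A3 (18.3 UPM), TRIM47 (9.83 UPM) and CYB561A3 (7.15 UPM). TNFRSF4 stood far above the others in rat 6 (64.5 UPM), and CCL20 in rat 14 (0.484 UPM, which is 1 UMI).

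The treatment effect differed between CD8 and CD4 T cells, by the test of the interaction, for 17 named genes. The log2 differences were 1.42 for ITGB7, 1.29 for TOX, 1.26 for MCM6, 1.18 for CD5, 1.14 for MYO1G, 1.10 for IL2RB, 1.02 for LCP1, 0.90 for LSP1, 0.90 for ICOS and 0.81 for SH2D2A. They were −4.60 for HTRA3, −3.71 for OLFML3, −2.83 for NBL1, −2.58 for FXYD1, −1.56 for FCGRT, −1.07 for S100A11 and −1.01 for ANXA5.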

How the results depend on the processing

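The share of CD8 T cells in all cells differed by 2.94 points, by 2.80 with thinned cells and 2.69 under the stricter rule (exact p = 0.0238 for both), and by 1.92 without other-class cells (exact p = 0.0714). With the replicate block it differed by 2.54 (exact p = 0.250), and 0.250 is the smallest p that 3 pairs allow. With 1 rat left out it differed by 2.23 to 3.63 (exact p = 0.0357 to 0.143). The smallest p possible there is 0.0357 without a TGFBRi rat and 0.0714 without a vehicle rat, so the latter could not pass 0.05. Among T cells the difference of 4.69 points was 2.89 with thinned cells, 1.82 with the block, −10.1 as a share of CD8 and CD4 cells (a denominator chosen after seeing the data) and 1.44 to 6.55 with 1 rat left out. The cytotoxic share differed by 0.902, by 3.10 without thinning, −2.37 under the stricter rule, −0.910 without vehicle rat 4 and 0.660 with the block, and by −0.910 to 3.35 with 1 rat left out. The naive share differed by 6.35 points, by 3.12 under the stricter rule (exact p = 0.405), 4.33 without other-class cells (exact p = 0.214), 4.51 without the top UMI cells (exact p = 0.167), 5.40 with the block (exact p = 0.250, again the smallest possible) and 4.37 to 7.77 with 1 rat left out. The residency share differed by −1.64 to −0.249 with 1 rat left out, and the CD8B share, a value of the rule given with no test, by 2.08, by 7.99 without thinning, −0.468 under the stricter rule, −0.986 without vehicle rat 4 and −0.986 to 4.87 with 1 rat left out. The causes were not tested.

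For TGFBRi in CD8 T cells, 783 genes became 309 under the stricter rule, 428 with sums thinned to the lowest rat, 264 without other-class cells, 292 without top UMI cells, 411 at an adjusted p of 0.05 and 268 to 881 with 1 rat left out. The replicate block gave 269 genes (88 higher, 181 lower). Same-numbered rats did not deviate together (r = −0.232, 0.05 and 0.0687), so the numbers were not taken as pairs. Of 74 named or listed genes that passed, 16 passed under every alternative run and 0 reversed.

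Between CD8 and CD4 T cells, 4567 genes became 5055 by total UMIs, 5374 under the stricter rule (62.6% higher, against 48.5%) and 4030 to 4577 with 1 rat left out. Single genes turned sign. Under the stricter rule these were NR4A1 (0.059), NFKBIA (0.12) and CD247 (0.26). Without other-class cells they were CDH1 (−0.21), ELF5 (−0.29), ATF3 (−0.56), IER3 (−0.61) and NR4A1 (0.071). Without top UMI cells they were CLDN3 (−0.15), DUSP6 (−0.16), CSF2 (−0.19), CDH1 (−0.20), KRT19 (−0.20), LTBP3 (−0.25), EPCAM (−0.30), FBLN1 (−0.32), DCN (−0.40), DPT (−0.48), ATF3 (−0.64), ELF5 (−0.73), KRT8 (−0.73), IER3 (−0.94) and H2AFZ (0.044). The interaction count of 25 became 59 by DESeq2, 162 without a filter, 1 under the stricter rule, 42 without other-class cells, 63 without top UMI cells and 9 (without vehicle rat 1) to 41 (without vehicle rat 2), and NBL1 turned to 0.086 without other-class cells. With 3 vehicle rats and 190 to 605 CD8 T cells in each, genes of few UMIs are limited by depth. CD4 T cells were fewer still, at 180, 138 and 54 in vehicle rats 1, 2 and 4. Those of vehicle rat 4 held 277822 UMIs in all, which limits both comparisons with CD4 T cells.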
